A study of Mus musculus with 6 samples.

Results

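The 8 genes T, Eomes, Mixl1, Mesp1, Hand1, Msx1, Cdx2 and Cdx1 encode transcription factors of the primitive streak, the mesoderm and the posterior body, and they are described here among 21853 protein-coding genes. They were taken from a fixed list of mesoderm and somatic genes known to be switched on and then silenced in germ cell-like cells, and each matched 1 gene of GENCODE release M21 on GRCm38. Chromatin immunoprecipitation followed by sequencing was done on day 2 mouse primordial germ cell-like cells (PGCLCs), cultured counterparts of the embryonic precursors of eggs and sperm. The cells were of strain 129Sv/J and untreated, and they carried Tex10 with an HA tag at its C-terminus. The 6 samples were 2 with an antibody against the HA tag, 2 with an antibody against H3K4me3 (histone H3 trimethylated on lysine 4) and 2 of input DNA. The deposited data used here are 1 list of intervals for H3K4me3, with 29072 intervals, and 1 for HA-Tex10, with 4331. The lists carry no score and no replicate, and the depth is unknown, so the values have no error between samples and no test was run. Positions are 1-based and refer to GRCm38. RNA was not measured, so silencing of the genes could not be read from these data.

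H3K4me3 marks the promoters of active genes and also those of many developmental genes that are held ready but not transcribed. In the embryo, BMP and WNT signals induce germ cell precursors in the posterior epiblast, where they share with mesoderm the early expression of genes such as T, and the germ cell regulator Blimp1 (Prdm1) is then needed to repress somatic genes. Tex10 is a nuclear protein known from ribosome assembly and from enhancers of pluripotent cells.

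H3K4me3 was found at all 8 genes, with an interval no more than 1 kb from a transcription start site (TSS), compared with 60.9% of all protein-coding genes. At 7 of the 8, the widest single interval was under 1342 bp, the median over all genes with H3K4me3 at a TSS. It measured between 421 bp at Cdx2 and 1083 bp at Mesp1 there, and 2421 bp at Eomes. At Hand1 the mark was split, and joining intervals up to 1 kb apart gave 3887 bp there, wider than Eomes. An HA-Tex10 interval lay at the TSS of Msx1 alone among the 8 (12.5%), beside 8.66% of all genes and 13.9% of the 13306 genes with H3K4me3 at a TSS. With 8 genes, 1 call is close to what either background share would give, and nothing is read from it about the list. Extending the search to the gene body plus 10 kb on each side added H3K4me3 intervals at Eomes, Hand1, Cdx2 and Cdx1 but no HA-Tex10 interval. In that window all 8 genes had H3K4me3, against 70.7% of all genes, and Msx1 remained the gene with HA-Tex10, against 16.9% of all genes. A gene without an HA-Tex10 interval was not detected as bound at a depth that is unknown here, and is not shown to lack Tex10.

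**Figure D1:**
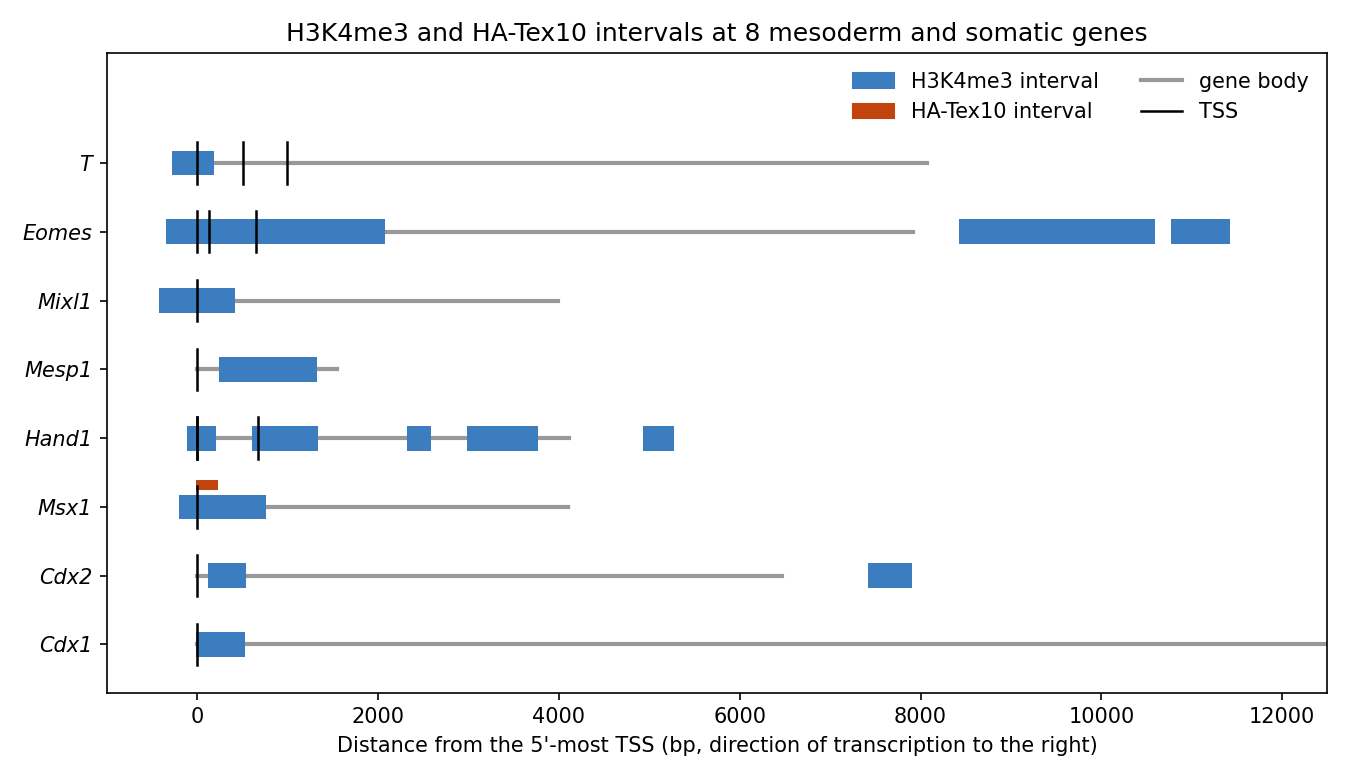
Each row is 1 gene with its 5′-most TSS at 0 bp and transcription to the right. Blue boxes are H3K4me3 intervals, the orange box is the HA-Tex10 interval, grey lines are gene bodies and black ticks are TSS; the Cdx1 body and its interval 21851 bp from the TSS run past the right edge. The blue boxes meet the first tick at 6 genes and begin 117 bp and 241 bp past it at Cdx2 and Mesp1.

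Msx1, a homeobox factor of limb, craniofacial and extraembryonic mesoderm, held both signals. The gene (ENSMUSG00000048450.10) lies on the minus strand at chr5:37820485-37824583. Its H3K4me3 interval, chr5:37823827-37824785, was 959 bp wide and reached from 202 bp upstream of the TSS to 756 bp downstream, over the whole 5′ untranslated part and 469 bp of coding sequence in exon 1. The HA-Tex10 interval, chr5:37824355-37824602, was 248 bp wide, and 54.9% of all HA-Tex10 intervals were narrower. It covered 19 bp upstream of the TSS and 229 bp of the 5′ UTR, with its centre 104 bp downstream of the TSS, and held no coding base. It lay wholly inside the H3K4me3 interval and took up 25.9% of it, leaving 528 bp of H3K4me3 on its downstream side and 183 bp on its upstream side. Of the 1893 protein-coding genes with HA-Tex10 within 1 kb of a TSS, 842 (44.5%) had an interval that contained a TSS, as Msx1 did. The next HA-Tex10 interval on the chromosome was 199 kb from the Msx1 TSS, at chr5:38023085-38023303. The next H3K4me3 interval lay at the same place, chr5:38023000-38023312, and neither was at the TSS of a protein-coding gene.

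The stretches upstream of the TSS are shown for Msx1, T and Cdx2, because they give the 3 arrangements seen among the members. At Msx1 the mark ends within the stretch, at T it covers the stretch and at Cdx2 it does not reach it. The sequences are RefSeq promoters of GRCm38.p6, which is strain C57BL/6J, read 5′ to 3′ on the strand of the gene. Each ends at the base before the GENCODE or the RefSeq start, whichever is more upstream. This is the RefSeq start at Msx1, 2 bp upstream of the GENCODE TSS, and the GENCODE TSS at Cdx2, and the starts are the same base at T. Capitals mark bases inside the H3K4me3 interval.
Msx1, chr5:37824586-37824835, minus strand: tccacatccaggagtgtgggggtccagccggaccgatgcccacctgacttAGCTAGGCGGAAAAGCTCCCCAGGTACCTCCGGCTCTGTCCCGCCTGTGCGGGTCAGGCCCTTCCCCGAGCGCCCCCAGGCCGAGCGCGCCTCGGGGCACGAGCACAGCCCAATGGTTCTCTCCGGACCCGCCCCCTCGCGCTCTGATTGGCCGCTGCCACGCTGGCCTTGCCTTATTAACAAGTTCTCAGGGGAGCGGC
T, chr17:8434173-8434422, plus strand: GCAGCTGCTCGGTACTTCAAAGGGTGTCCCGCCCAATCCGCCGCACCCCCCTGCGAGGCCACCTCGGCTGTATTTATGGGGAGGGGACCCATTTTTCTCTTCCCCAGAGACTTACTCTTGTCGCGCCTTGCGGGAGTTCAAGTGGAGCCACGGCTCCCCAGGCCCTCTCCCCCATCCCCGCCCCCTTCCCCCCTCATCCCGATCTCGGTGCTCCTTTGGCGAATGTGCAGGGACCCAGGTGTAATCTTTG
Cdx2, chr5:147307271-147307499, minus strand: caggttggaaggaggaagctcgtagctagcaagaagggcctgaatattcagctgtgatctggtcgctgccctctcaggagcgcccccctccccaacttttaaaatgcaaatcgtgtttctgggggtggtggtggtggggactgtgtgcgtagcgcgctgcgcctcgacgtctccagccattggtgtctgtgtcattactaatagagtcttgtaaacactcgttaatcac
In these stretches 200 of 250 bases were inside H3K4me3 at Msx1, 250 of 250 at T and 0 of 229 at Cdx2. The last 17 bases of the Msx1 stretch were also inside the HA-Tex10 interval, which covers 19 bp upstream of the GENCODE TSS, where the stretch stops 2 bp short.

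The centre of the Msx1 HA-Tex10 interval is shown for its base composition, with CpG dinucleotides in capitals.
Msx1 interval centre, chr5:37824464-37824493, minus strand: gcCGcaggaggctCGCGCGCGagagcCGgc
These 30 bases held 6 CpG. The whole interval held 29 CpG, with a GC content of 72.6% and an observed over expected CpG ratio of 0.892. None of 8 short motifs searched on both strands was found in the interval. They were the T-box motif (AGGTGTGA), TCF/LEF (ATCAAAG), CDX (TTTATNG), OCT (ATGCAAAT), 1 form of the E-box (CACGTG), the SP box (GGGCGG), NFY (CCAAT) and ETS (CCGGAAGT). In the same window at the 5′-most TSS of 21852 genes, the SP box was present in 36.9%, NFY in 21.2% and each of the others in 0.494 to 5.32%. No match says that these letters are not in this window, and nothing is drawn from it about the factors.

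T (Brachyury), the T-box factor that marks the primitive streak and nascent mesoderm, lies at chr17:8434423-8442496 on the plus strand. Its single H3K4me3 interval, chr17:8434149-8434609, was 461 bp wide and reached from 274 bp upstream to 186 bp downstream of the first TSS. The gene has 3 annotated coding TSS. The other two, 502 bp and 988 bp downstream, lay 316 bp and 802 bp outside the interval. Of the 13306 genes with H3K4me3 at a TSS, 8.15% had a narrower widest interval than T. The next H3K4me3 interval was 44.9 kb away, and the nearest HA-Tex10 interval, 150 kb from a TSS, was at the TSS of Mpc1.

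Eomes, the T-box factor that precedes T in the streak and acts in mesoderm and endoderm, had the widest single interval of the 8 genes. The gene lies at chr9:118478212-118486132 on the plus strand. Its interval, chr9:118477867-118480287, contained all 3 annotated coding TSS and reached 2075 bp downstream of the first, over 887 bp of coding and 741 bp of intronic sequence. It was wider than the widest interval of 86.2% of genes with H3K4me3. A second interval of 2175 bp, chr9:118486632-118488806, and another of 653 bp, chr9:118488986-118489638, lay beyond the 3′ end of the gene. Both came within 1 kb of a TSS of the antisense gene Gm33460, and a gap of 179 bp separated them. The 3 intervals together thus bracketed the gene, with 6344 bp between the first and the second. The nearest HA-Tex10 interval was 352 kb from an Eomes TSS, the longest such distance among the 8 genes.

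Mixl1, a homeobox factor of the primitive streak that patterns mesendoderm, lies at chr1:180693043-180697034 on the minus strand. Its single interval, chr1:180696620-180697453, was 834 bp wide and nearly centred on the TSS, from 419 bp upstream to 414 bp downstream. This was the longest upstream reach of the 8 genes. The nearest HA-Tex10 interval was 80.6 kb away.

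Mesp1 and Hand1 encode basic helix-loop-helix factors, Mesp1 of the earliest cardiac and head mesoderm and Hand1 of extraembryonic, lateral and cardiac mesoderm. Mesp1 lies at chr7:79792241-79793788 on the minus strand. Its interval, chr7:79792465-79793547, was 1083 bp wide and contained no annotated TSS, since it began 241 bp downstream. It covered 70.0% of this short gene, including 729 bp of coding sequence. The RefSeq start lies 198 bp downstream of the GENCODE start, and from it the interval was 43 bp away. Mesp2, the paralogue whose TSS lies 16939 bp away, had no H3K4me3 interval within 1 kb of its TSS. The HA-Tex10 interval nearest to Mesp1 was 35.2 kb from its TSS.

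At Hand1 (chr11:57828705-57832818, minus strand) the mark was broken into 5 intervals, the most found at any of the 8 genes. An interval of 326 bp, chr11:57832609-57832934, contained the first TSS, and one of 739 bp, chr11:57831479-57832217, contained the second TSS, 671 bp downstream. Further into the gene lay an intronic interval of 266 bp and one of 786 bp over the last exon, with 554 bp of 3′ UTR. The last, of 344 bp, was past the 3′ end. The gaps between neighbours were 391, 977, 402 and 1159 bp, and when intervals up to 1 kb apart were joined, Hand1 had a single interval of 3887 bp at its TSS, wider than that of Eomes. Of all genes with H3K4me3 at a TSS, 10.5% had 5 or more intervals in the body plus 10 kb. The nearest HA-Tex10 interval was 138 kb from a TSS.

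Cdx2 and Cdx1 encode caudal homeobox factors of the posterior body axis, and Cdx2 also acts in trophectoderm. Cdx2 (chr5:147300805-147307270, minus strand) had the narrowest mark of the 8 genes, 421 bp at chr5:147306733-147307153. It began 117 bp downstream of the TSS, or 96 bp from the RefSeq start, and lay wholly in exon 1, over 171 bp of 5′ UTR and 250 bp of coding sequence. A second interval of 489 bp, chr5:147299361-147299849, lay past the 3′ end and was within 1 kb of no annotated TSS. The nearest HA-Tex10 interval was 304 kb away.

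Cdx1 (chr18:61018862-61036199, minus strand) had an interval of 546 bp, chr18:61035670-61036215, that reached 16 bp upstream and 529 bp downstream of its TSS. Its second interval in the window, of 560 bp, was at the TSS of the neighbouring gene Slc6a7. The nearest HA-Tex10 interval was 278 kb from the Cdx1 TSS.

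Measured together, the 9 H3K4me3 intervals at the TSS of the 8 genes covered 7790 bp. Coding sequence made up 45.7% of this length, 5′ UTR 19.9%, sequence upstream of the gene 17.6% and introns 16.0%. Of the 13 distinct coding TSS of the 8 genes, 9 were inside an interval, and the share over all coding TSS was not computed. By gene, 6 of the 8 had a TSS inside an interval, beside 85.9% of genes with H3K4me3. All TSS were inside at 5 of the 8, beside 50.0%. That share depends on how many TSS a gene has, and Mixl1, Mesp1, Msx1, Cdx2 and Cdx1 have 1 coding TSS each. The genes were not matched for TSS number. At Mesp1 and Cdx2 no TSS was inside an interval, a state found at 14.1% of the 13306 genes with H3K4me3. The widest interval reached a median of 109 bp upstream and 646 bp downstream of the first TSS, and the medians over all genes with H3K4me3 were 230 bp and 1053 bp. An interval beginning downstream counted as a negative upstream reach. This held for the widest intervals at Hand1, Mesp1 and Cdx2 (37.5%), beside 27.4% of genes with H3K4me3. A narrower interval at Hand1 reached 116 bp upstream. Around the first TSS, the share of bases within 1 kb covered by H3K4me3 was lowest at Cdx2, 23.0% at T, and highest at Eomes with 67.3%. The median was 37.1%, compared with 57.1% over all genes with the mark.

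The median width over the 8 genes was 786 bp, beside 1342 bp over all genes with H3K4me3 at a TSS (interquartile range 861 to 1967 bp). Widths at 7 of the 8 genes were under this median and at 5, T, Mixl1, Hand1, Cdx2 and Cdx1, under the lower quartile. Those reference values take the widest interval of each gene. The median over all H3K4me3 intervals was 710 bp, and Eomes, Mesp1, Msx1, Mixl1 and Hand1 were wider than that. Core pluripotency genes, which keep the embryonic stem cell state, gave a contrast within the same list of intervals. All 12 had the mark, with a median width of 2838 bp, and 9 of them were wider than Eomes, with Sox2 at 6675 bp and Pou5f1 at 6136 bp. Among 10 genes of germ cell specification, 8 had the mark at a TSS, with a median of 1365 bp. Sall4 stands in both of these lists. These differences between lists were not tested, since an interval's width is a single value for the series and the genes of a list are not replicates.

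**Figure D2:**
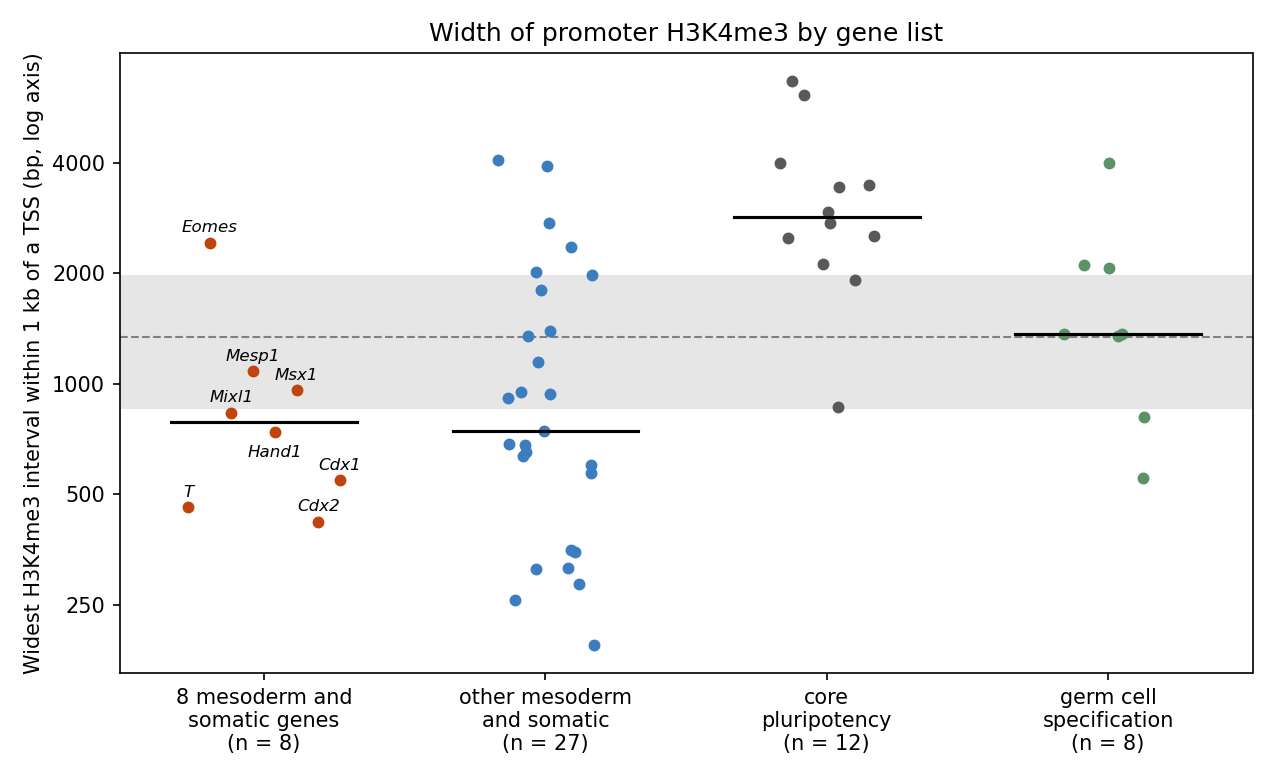
Each point is 1 gene with H3K4me3 at a TSS, plotted by the width in bp (log axis) of its widest interval within 1 kb of a TSS; black lines are list medians, and the dashed line and grey band are the median (1342 bp) and interquartile range over all 13306 such genes. Of the 8 mesoderm and somatic genes, Eomes at 2421 bp is the one above the dashed line, while the pluripotency median is 2838 bp.

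Other genes of the same developmental programme were read from a list of 37. Of these, 27 (73.0%) had H3K4me3 at a TSS, beside 60.9% of all protein-coding genes. The 27 had a median width of 745 bp, and 18 of them were under the median of all genes with the mark. The roles hold 6 to 11 genes each and were not compared by a test. By role, the mark was present at 4 of 6 signals of the streak, 5 of 6 streak and node factors and 3 of 7 paraxial mesoderm genes. It was present at 10 of 11 lateral, cardiac and blood genes and 5 of 7 posterior and somatic factors. The 10 genes without it were the signals Wnt3a and Cer1, the repressor Snai1, the paraxial genes Tbx6, Msgn1, Mesp2 and Meox1, the cardiac factor Tbx20, and Hoxb2 and Prrx1. The widest intervals were at Tcf15 (4082 bp), Nodal (3923 bp), Dll1 (2741 bp), Hes7 (2359 bp) and Sox17 (2010 bp). Tbx6 was the 1 gene of the 37 (2.70%, beside 8.66% of all genes) with HA-Tex10 within 1 kb of a TSS, at 918 bp, and it had no H3K4me3 there. In width, the members were nearest to Etv2 (353 bp, for T and Cdx2), Hes7 (for Eomes), Isl1 (913 bp, for Mixl1), Foxa2 (1148 bp, for Mesp1), Msx2 (745 bp, for Hand1), Kdr (949 bp, for Msx1) and Bmp4 (573 bp, for Cdx1). Close paralogues of members in the list are Mesp2, Hand2, Msx2 and Cdx4. Hand2 had H3K4me3 of 1350 bp, and its nearest HA-Tex10 interval was 11.8 kb away. Its mark was wider than the widest single interval at Hand1 (739 bp). Hand1 had 3887 bp when intervals up to 1 kb apart were joined, and no joined value was computed for Hand2 alone. Msx2 had H3K4me3 but no HA-Tex10 interval within 1 kb, its nearest lying 10.8 kb away. Cdx4 had the narrowest mark of the 27, 194 bp, and Mesp2 had none.

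Apart from Msx1, the members lay 35.2 to 352 kb from the nearest HA-Tex10 interval. The median over the 8 genes was 144 kb, compared with 108 kb over all genes with H3K4me3 at a TSS, and 5 of the 8 were above that value. The median was 170 kb for the 27 other mesoderm and somatic genes with the mark, 44.1 kb for the pluripotency genes and 45.4 kb for the germ cell genes with the mark. HA-Tex10 was within 1 kb of a TSS at 3 of the 12 pluripotency genes (Klf2, Tbx3 and Sall4) and at 2 of the 10 germ cell genes (Kit and Sall4), beside 8.66% of all genes and 13.9% of genes with H3K4me3. These counts were not tested against the 1 of 8 members. The nearest TSS of another protein-coding gene was 8951 bp (Cdx1) to 89064 bp (Msx1) from the members' TSS. The median was 28208 bp, and over all genes with H3K4me3 it was 18014 bp.

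**Figure D3:**
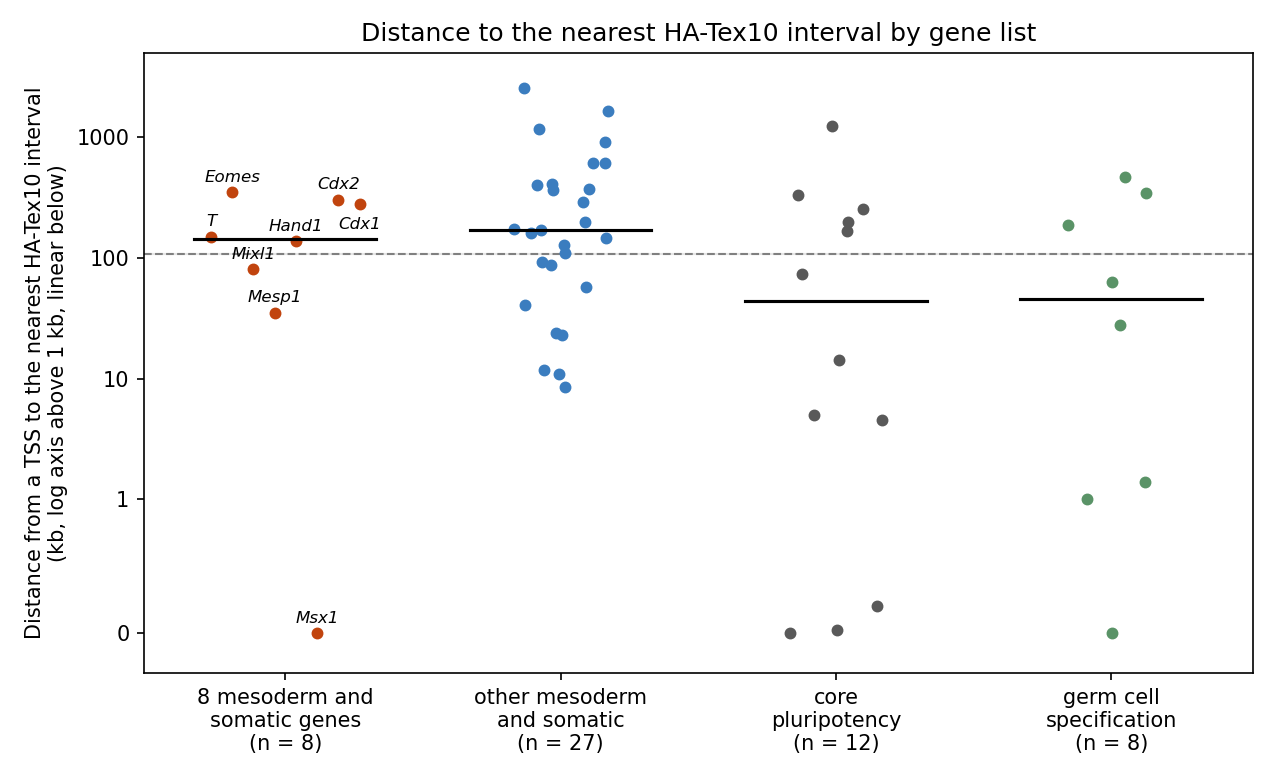
Each point is 1 gene with H3K4me3 at a TSS, plotted by the distance in kb from its TSS to the nearest HA-Tex10 interval, on an axis that is linear below 1 kb and logarithmic above. Black lines are list medians and the dashed line is the median over all genes with H3K4me3, 108 kb. Msx1 sits at 0 kb and the other members between 35.2 and 352 kb.

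Base composition around the first TSS, which was not used to choose the genes, varied among the members. In 1000 bp centred on the TSS, GC content ran from 55.2% at Eomes to 72.9% at Cdx1. The observed over expected CpG ratio ran from 0.340 at Hand1 to 0.813 at Mixl1. Hand1 and Mesp1 (0.410) were the 2 lowest, and only 7.86% and 10.8% of genes with H3K4me3 had a lower ratio. T (0.646), Eomes (0.621), Cdx2 (0.639) and Msx1 (0.676) lay close together, and Cdx1 had 0.785. The median was 0.642 for the 8 genes, 0.731 for genes with H3K4me3 and 0.187 for genes without it. CpG number and width could differ in opposite ways between members. For example, Cdx1 had 103 CpG and an interval of 546 bp, and Mesp1 had 36 CpG and an interval of 1083 bp. The Mesp1 interval runs from 241 to 1323 bp downstream of the TSS, mostly outside the window in which CpG were counted. The widest Hand1 interval, from 601 to 1339 bp downstream of the first TSS, lies wholly outside that window. It contains the second Hand1 TSS, so the ratio at Hand1 describes the first TSS and its narrower interval of 326 bp. A relation of CpG number to width was not tested.

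**Figure D4:**
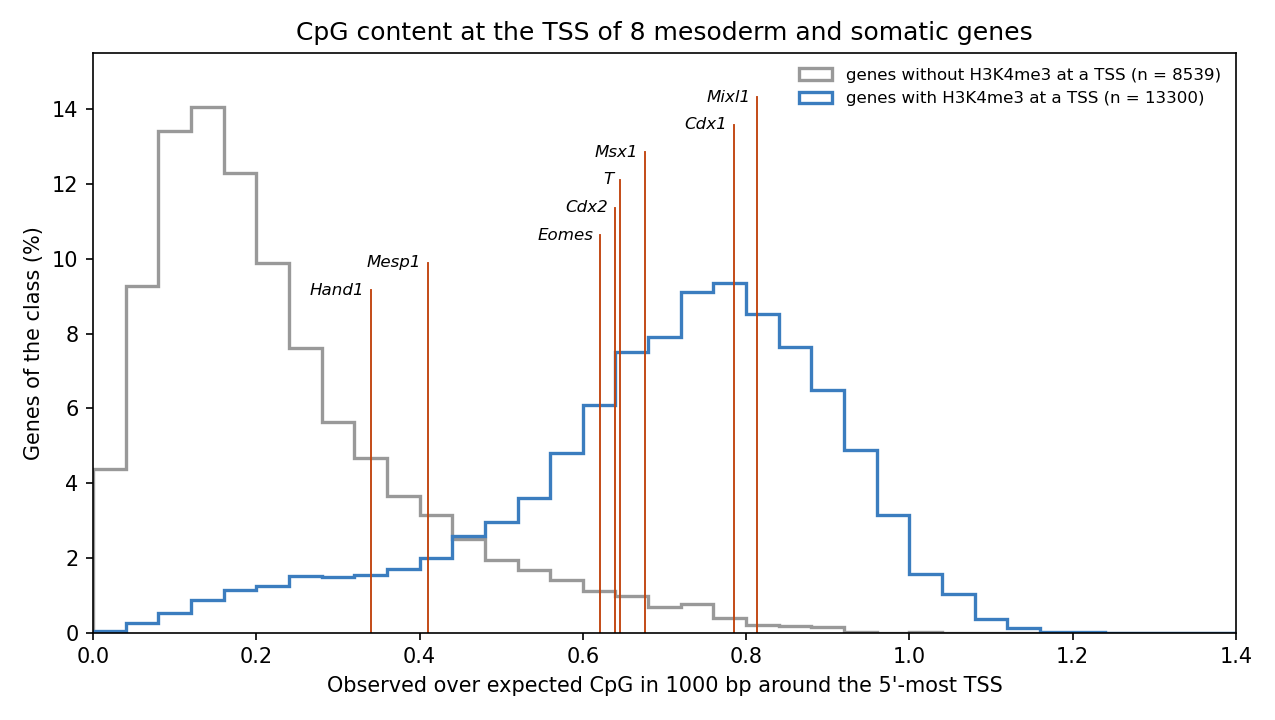
Histograms give the percent of genes without (grey) and with (blue) H3K4me3 at a TSS by the observed over expected CpG ratio in 1000 bp around the 5′-most TSS. Vertical lines mark the 8 genes, their heights only separating the names. Hand1 (0.340) and Mesp1 (0.410) lie where the classes overlap, and the other 6, from 0.621 to 0.813, lie under the main blue peak.

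Promoters of 300 bases, from 250 before to 50 after the RefSeq start, were matched for 5 members (T, Eomes, Mesp1, Msx1 and Cdx2). NFY (CCAAT) was present in all 5, with 2 matches each at Eomes and Msx1, and in 37.4% of the 32851 promoters of the table. The SP box was present at T and Msx1 (35.7% of all promoters). The T-box motif and TCF/LEF each had 1 match, both at Mesp1 (1.28% and 3.73% of all promoters). CDX had 1 match, at T (10.9%), and the OCT octamer had 1, at Cdx2 (1.74%), where it is seen as atgcaaat in the stretch printed for that gene. The E-box form searched, CACGTG, and ETS had no match in the 5 promoters. Other forms of the E-box were not searched. A match is a description of the letters and not a site.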

How the data were processed

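Day 2 PGCLCs gave 2 HA-Tex10, 2 H3K4me3 and 2 input samples. The authors deposited interval lists, 1 for each antibody and a further HA-Tex10 list whose 2990 distinct intervals are all in the first one. The deposited values are starts and ends in bp, and the score and strand columns are empty. Per the submitters' processing notes, Bowtie2 2.3.4.3, SAMtools 1.9, MACS2 2.1.2, HOMER and the build mm10 (GRCm38) were used. The calling threshold, the use of input and the treatment of replicates are not given in the sources used here. No interval ended past a GRCm38 chromosome end.

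Starts were raised by 1. TSS came from the protein-coding transcripts of GENCODE M21 coding genes (54327 distinct TSS). An interval was at a TSS within 1 kb of it, and an overlap was at least 1 bp. A gene's width was that of its widest interval at a TSS, and percentiles are the share of genes with H3K4me3 that had a lower value. Python 3.11.15 and numpy 2.4.6 were used, and the interval functions were tested on simulated intervals. Expected CpG was the product of the C and G counts over the window length. Sequence inside the 5′ UTR was printed for 30 bases only.

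The members and lists were chosen with earlier results of these data known. The genes named were all members and, of the other list, those with HA-Tex10 or without H3K4me3 at a TSS, the 5 widest and the nearest in width to a member; paralogues and examples in the comparison lists were chosen after their values were seen. Alternatives were other TSS and gene windows, other TSS sets, wider intervals, joined intervals and the further list.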

Additional observations from a re-analysis of the deposited data

How the results depend on the processing

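No paired analysis was possible because the lists name no replicate, and none could be left out either. Of 30 values of the counts of members and the median width under alternatives, 25 stayed the same and 5 moved. Counts within a factor of 1.5 were taken as the same, as when 8 members became 6. The median width was taken as moved even from 786 bp to 810 bp, so the tally mixes unlike rules. The count of members with H3K4me3 fell from 8 to 5, at a TSS and in the body plus 10 kb, when intervals up to the list median of 710 bp were left out, which removes T, Cdx2 and Cdx1 by their widths; the shares of all genes fell from 60.9% to 49.8% and from 70.7% to 58.9%. The median width of 786 bp became 896 bp with summed widths, 896 bp with intervals joined across 1 kb and 810 bp with a 2.5 kb window. Joining also raised Hand1 from 739 bp to 3887 bp. This was above Eomes at 2421 bp and above the joined median of 1491 bp over all genes with H3K4me3. The count of members with HA-Tex10 was 1 under each alternative run, while the share of all genes ran from 3.85% to 10.6% at a TSS and from 9.19% to 21.6% in the body windows. Requiring a TSS inside the interval, an alternative chosen after seeing the data, gave 6 members with H3K4me3 and 52.3% of all genes. The depth is unknown, and whether an interval was called in both replicates cannot be told from the lists.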
